A study of Mus musculus with 8 samples.

Results

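The Krüppel-like factor (Klf) genes described here are 10 members of the mouse family, Klf2, Klf3, Klf4, Klf5, Klf6, Klf9, Klf10, Klf11, Klf13 and Klf15. They were taken as a fixed list of genes, and every merged H3K56ac peak that overlapped a member gene or the 50 kb on either side of it by at least 1 bp was collected. This gave 160 of the 105600 peaks of the merged list, and no peak fell into the windows of 2 members. H3K56ac, acetylation of histone H3 at lysine 56, had been mapped by ChIP-seq in muscle stem cells (MuSCs) that were sorted directly from C57BL/6 mice and not cultured. Per the study's methods, male mice of 12 to 16 weeks were used.

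The 8 libraries formed 4 groups of 2 replicates, H3K56ac and input chromatin from Control and from Sirt6mKO mice. Control mice were wild type per the labels. The study used littermates as controls and elsewhere gives its control as Sirt6 fl/fl without Cre, so the Control alleles may be floxed. Sirt6mKO mice carried Sirt6 alleles with loxP sites around exons 4 to 6 (Sirt6 fl/fl) and Pax7-ICNCre, a Cre driven by the Pax7 promoter, so that SIRT6, a histone deacetylase, was lost in the whole Pax7 lineage and not from the adult cell alone. The study asked where the mark lies in these cells and what loss of SIRT6 does to it. The material analysed here was 1 list of intervals pooled over libraries, with 0 columns of values per sample and a score of 0 in every row. The list therefore gives no peak height, read number or replicate error, Control and Sirt6mKO cannot be told apart at any peak, and all values below describe the extent and position of peaks without a test.

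KLF proteins bind GC-rich sequence of the CACCC type through C-terminal zinc fingers, and they are relatives of the SP proteins, which bind GC boxes. Their N-terminal parts differ and set the partner that is recruited: KLF3 binds the corepressor CtBP, KLF2, KLF4, KLF5 and KLF6 recruit acetyltransferases, and KLF9, KLF10, KLF11 and KLF13 bind the corepressor Sin3A. Several members are induced within minutes to hours by serum, stress, TGF-β or glucocorticoids, and members of the family act in quiescence and differentiation of many cell types, muscle included.

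The sequences of 4 promoters show the kind of DNA at the starts of the members, under a peak or, at Klf4, mostly outside one. RefSeq (GRCm38.p6) promoters were found for 8 of 10 members, and Klf5 and Klf10 had no entry. Each stretch is written 5′ to 3′ on the strand of the gene and ends just before the first annotated start. In the first 3, capitals mark CACCC and GGGCGG on either strand. The Klf2 stretch is chr8:72318812-72319032 (plus strand), that of Klf9 is chr19:23140976-23141225 (plus strand) and that of Klf13 is chr7:63938916-63939165 (minus strand), and all 3 lay wholly under a peak. In the Klf4 stretch, chr4:55532476-55532725 (minus strand), capitals mark the 192 bases that no peak covered.

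Klf2 promoter: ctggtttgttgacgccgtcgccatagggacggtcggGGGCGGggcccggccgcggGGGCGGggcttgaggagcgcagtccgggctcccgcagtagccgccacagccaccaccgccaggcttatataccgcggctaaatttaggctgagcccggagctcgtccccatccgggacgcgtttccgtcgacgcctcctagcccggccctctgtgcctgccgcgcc
Klf9 promoter: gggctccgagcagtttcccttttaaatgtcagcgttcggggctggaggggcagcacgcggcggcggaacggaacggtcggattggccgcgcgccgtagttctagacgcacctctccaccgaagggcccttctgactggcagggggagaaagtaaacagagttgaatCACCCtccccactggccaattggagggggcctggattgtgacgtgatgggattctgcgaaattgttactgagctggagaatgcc
Klf13 promoter: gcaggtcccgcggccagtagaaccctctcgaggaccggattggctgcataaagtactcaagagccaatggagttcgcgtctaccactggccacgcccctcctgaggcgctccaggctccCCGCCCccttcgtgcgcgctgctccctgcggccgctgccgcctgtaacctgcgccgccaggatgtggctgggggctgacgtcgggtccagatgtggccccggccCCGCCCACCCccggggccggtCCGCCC
Klf4 promoter: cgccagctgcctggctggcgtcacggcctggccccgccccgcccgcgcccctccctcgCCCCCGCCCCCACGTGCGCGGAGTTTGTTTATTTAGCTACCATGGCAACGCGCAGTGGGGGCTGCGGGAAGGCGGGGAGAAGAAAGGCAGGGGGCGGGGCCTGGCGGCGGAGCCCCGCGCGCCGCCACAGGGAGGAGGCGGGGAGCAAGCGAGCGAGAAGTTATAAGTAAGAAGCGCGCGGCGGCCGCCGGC

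Over the 300 bases from 250 before to 50 after the RefSeq start, the 8 promoters had a median GC content of 72.7%, against 52.7% for 32851 mouse promoters and 60.3% for the 16155 that had at least 1 base in a peak. Their median ratio of observed to expected CpG was 0.919, against 0.384 and 0.731. The GC box letters GGGCGG, searched on both strands, were found in 7 of 8 (87.5%, against 35.7% of all promoters and 59.6% of those with a peak base). Klf9 was the promoter without them. CACCC, the core of KLF sites, was found in 5 of 8 (62.5%, against 57.5% and 63.8%), with 5 matches in Klf3 and 1 each in Klf2, Klf9, Klf13 and Klf15. Matches of the 2 motifs can overlap, as in the CCGCCCACCC of the Klf13 stretch. TATAAA was found in 0 of 8 promoters, against 13.6% of all and 7.34% of those with a peak base. A match here is a description of letters and not of a bound site.

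All 10 members had a promoter peak, meaning a peak within 3 kb of an annotated transcription start site (TSS). Among 21938 protein-coding genes 67.8% had one, so this count alone sets the members little apart. The width of the widest promoter peak varied widely among the members. It was 24476 bp at Klf9, 11954 bp at Klf13, 11632 bp at Klf15, 10918 bp at Klf6, 7884 bp at Klf3, 5467 bp at Klf10, 3748 bp at Klf4, 3710 bp at Klf11, 2431 bp at Klf5 and 2349 bp at Klf2. The promoter peak thus reached 5 kb in 6 members (16.5% of coding genes) and 10 kb in 4 members, Klf6, Klf9, Klf13 and Klf15 (2.59%). Of the 36 annotated TSSs of the members 31 lay in a peak, all but 5 that belonged to Klf3, Klf4 and Klf10, against 53.2% of the TSSs of coding genes. The median width of the 10 widest promoter peaks was 6675.5 bp, against 3430 bp for the 14872 coding genes with a promoter peak, and the peaks of Klf2 and Klf5 were narrower than that median.

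The same 4 genes had at least 85% of the gene body under peaks, which 3.26% of coding genes had. The body of Klf6 was covered to 100%, that of Klf13 to 97.3%, Klf15 to 91.2% and Klf9 to 87.0%. Klf4 followed with 70.4%, Klf2 with 64.1%, Klf3 with 51.5%, Klf10 with 41.9%, Klf11 with 23.2% and Klf5 with 9.82%. The median was 67.2%, against 7.82% for all coding genes and 15.8% for those with a promoter peak. Short bodies are more easily filled by a promoter peak, and the gene lengths ran from 2.62 kb at Klf2 to 52.6 kb at Klf13. Klf13 was the longest member and among the most fully covered.

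**Figure D1:**
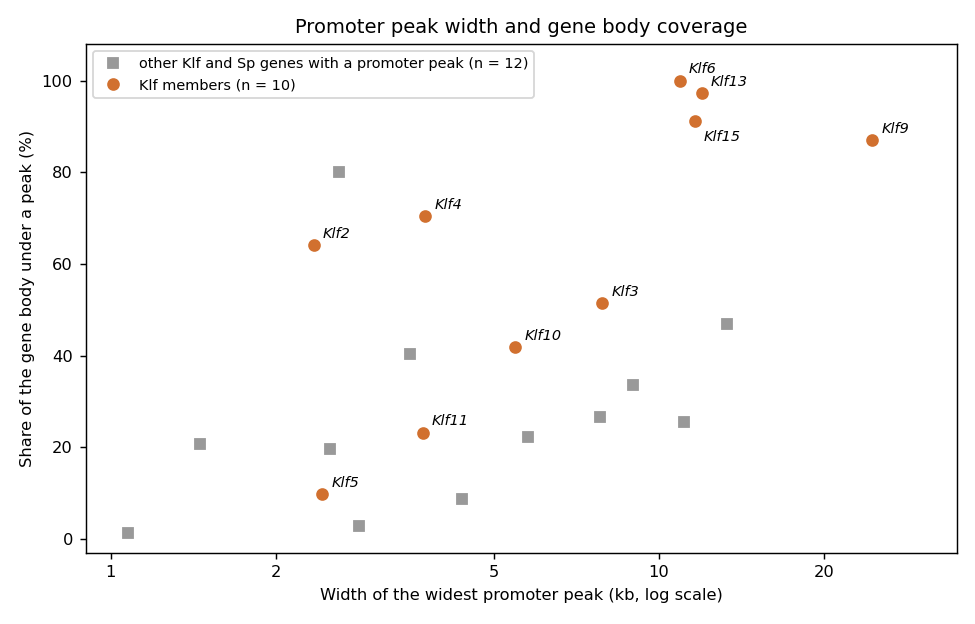
Width of the widest promoter peak (x axis, kb, log scale) against the share of the gene body under a peak (y axis, %), 1 point per gene, for the 10 Klf members (circles, named) and the 12 other Klf and Sp genes with a promoter peak (squares). Klf6, Klf9, Klf13 and Klf15 lie together above 10 kb and 85%, while Klf2 and Klf5 have promoter peaks under 2.5 kb.

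Summed over the 1176 kb of the 10 windows, 305 kb or 25.9% lay under a peak. The median member window was covered to 24.0%, and the median coding gene to 9.46% (14.1% for coding genes with a promoter peak). In order, the covered share was 48.5% at Klf13, 38.0% at Klf9, 33.0% at Klf10, 30.7% at Klf3, 28.6% at Klf15, 19.4% at Klf4, 18.4% at Klf6, 16.6% at Klf11, 12.3% at Klf2 and 2.65% at Klf5. The upper 5 had at least 25% covered, as did 15% of coding genes. Without replicate values, no statement can be made on whether neighbours in this order, such as Klf4 and Klf6, differ. Klf13 lay at percentile 98.8 of the coding genes (the share of genes with less cover), Klf9 at 96.3, Klf10 at 93.4 and Klf3 at 91.5. Klf5, at percentile 27.1, was the 1 member below the median of coding genes.

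**Figure D2:**
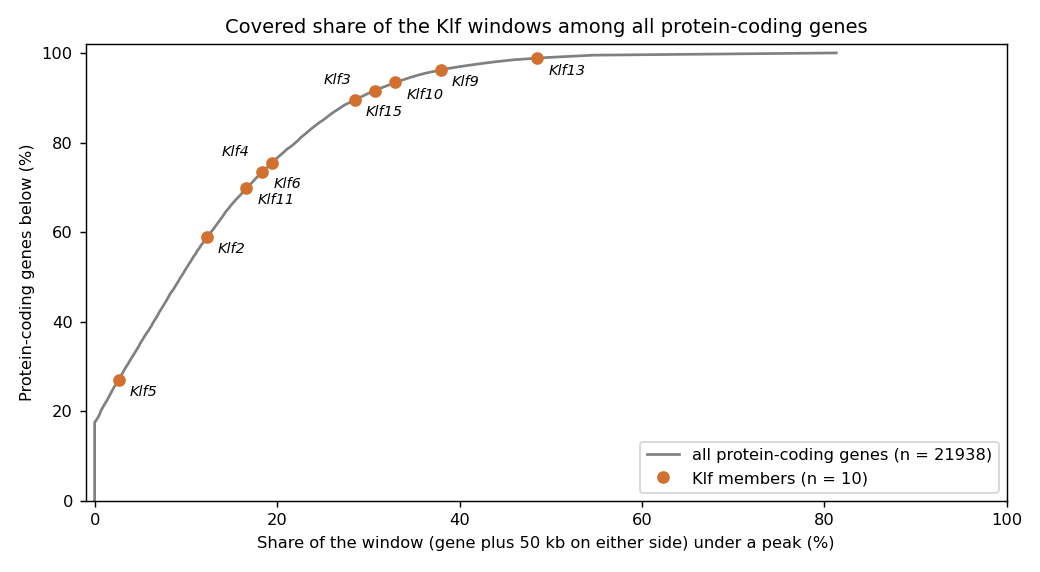
Covered share of the window (x axis, %) against the percentage of protein-coding genes below it (y axis); the line is the distribution over 21938 coding genes and each circle is a Klf member. Of the 10 members, 9 lie above the coding median of 9.46% and 4 above the 90th percentile of 29.0%.

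Grouped by the partner of the protein, the members that bind Sin3A held the most peaks, 89 of 160, against 32 for those that recruit acetyltransferases. The counts take no account of window length, and in both groups some peaks lay on other coding genes. The 4 windows of Klf9, Klf10, Klf11 and Klf13 were covered to 35.3% together (range 16.6% to 48.5%), those of Klf2, Klf4, Klf5 and Klf6 to 12.98% (2.65% to 19.4%), the window of Klf3 to 30.7% and that of Klf15 to 28.6%. The ranges of the groups of 4 overlapped, since Klf11 lay below Klf4 and Klf6.

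Klf3 encodes the CtBP-binding repressor. It lies at chr5:64803388-64832901 on the plus strand and had 19 peaks in its window. Its annotated 5′ end was inside the 7884 bp peak, which began 90 bp before it, and 7 of its 9 annotated TSSs lay in peaks. All 10 distal peaks of the window, meaning peaks more than 3 kb from every annotated TSS of any gene, lay downstream. The downstream flank was covered to 42.6% and the upstream flank to 6.47%. The widest distal peak, 6449 bp at chr5:64873077-64879525, began 69.7 kb from the 5′ end. The nearest annotated 5′ end of another coding gene, Tlr1, was 130 kb away.

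Klf2, which encodes a regulator of quiescence in T cells and of the endothelium, lies at chr8:72319033-72321656 (plus strand) and showed the opposite layout. Its 8 peaks were the 2349 bp promoter peak and 7 peaks upstream, and the downstream flank had none (0%, against 22.0% of the upstream flank). The widest peak of the window was a distal one, 2983 bp at chr8:72294691-72297673, whose near edge was 21.4 kb from the 5′ end. The nearest annotated 5′ end of another coding gene, the gene model Gm10282, lay 13.8 kb away and had its own 2956 bp peak. A peak of 1895 bp also overlapped Gm10282. Of the 12.7 kb covered in the window, 4.85 kb lay on other coding genes or their promoters, so part of the upstream cover belongs to this neighbour.

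Klf4 encodes a reprogramming factor that is known from pluripotent cells and epithelia. It lies at chr4:55527143-55532466 on the minus strand and was the 1 member whose annotated 5′ end was not in a peak. Peaks of 3748 bp and 1943 bp flanked the start and left 242 bp between them uncovered, chr4:55532426-55532667, which is the capital stretch printed above with its continuation past the start. Of the 300 bases of the RefSeq promoter, 19.3% lay in a peak. Among coding genes 56.8% had their 5′ end in a peak, as had the other 9 members. A series of 6 peaks lay between 29.8 and 36.6 kb upstream, and 5 of the 8 distal peaks lay more than 40 kb downstream of the 5′ end. The widest distal peak was 2824 bp, 16.8 kb downstream. The nearest annotated 5′ end of another coding gene, Rad23b, was 182 kb away.

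Klf5, which encodes a factor of proliferating epithelium and smooth muscle, lies at chr14:99298691-99315036 (plus strand) and had 2 peaks. Of these, 1 spanned the promoter with 2431 bp and the other was a distal peak of 650 bp at chr14:99325799-99326448, 27.1 kb downstream of the 5′ end. The nearest annotated 5′ end of another coding gene, Dis3, was 199 kb away. Klf5 thus had a covered promoter in a nearly empty window.

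Klf6, an early-response gene of tissue injury, lies at chr13:5861482-5870394 (plus strand). A single peak of 10918 bp, chr13:5859499-5870416, covered the gene from upstream of the 5′ end to past its last exon, and a peak of 2028 bp followed after 5 bp. Outside these, 6 peaks of 377 to 2640 bp lay scattered over the flanks. The widest of the 6, 2640 bp, was distal and upstream. With the parts of the 10918 bp and 2028 bp peaks outside the gene included, the flanks were covered to 12.2% upstream and 10.1% downstream. The nearest annotated 5′ end of another coding gene, Pitrm1, was 687 kb away.

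Klf9, a target of glucocorticoid and thyroid hormone receptors, lies at chr19:23141226-23168134 (plus strand) and had the widest peak of all the windows. The peak of 24476 bp, chr19:23129638-23154113, reached from 11.6 kb upstream to 12.9 kb inside the gene, and its width was at percentile 99.8 of coding genes with a promoter peak. When gaps under 1 kb were joined, 8 peaks made 1 region of 36.5 kb. The window held 20 distal peaks, of which 10 lay upstream, 7 in the gene body and 3 downstream, and the upstream flank was covered to 44.4% against 5.09% downstream. The widest distal peak was 5108 bp, 32.2 kb upstream, and the narrowest peak of all windows, 213 bp, lay in the intron of Klf9. The nearest annotated 5′ end of another coding gene, Smc5, was 133 kb away, but a window peak within Smc5 lay 2511 bp from an annotated TSS.

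Klf10 and Klf11, the TGF-β-inducible early genes, differed in extent. Klf10 (chr15:38291463-38300706, minus strand) had 24 peaks, and its widest peak was not at the promoter but 37.2 kb upstream, 6997 bp at chr15:38337874-38344870, within the gene model Gm35248. The nearest annotated 5′ end of another coding gene, Odf1, was 81.5 kb away, and 80.9% of the covered sequence of the Klf10 window was flank. This flank was not all far from TSSs. Of the 24 peaks 9 were distal, with 42.2% of the covered length, and the other flank peaks lay within 3 kb of an annotated TSS. Klf11 (chr12:24651274-24662789, plus strand) had 14 peaks. Its widest, 4757 bp, lay at the promoter of the neighbour Cys1, and 9.39 of the 18.6 kb covered in the window belonged to other coding genes and their promoters. Its widest distal peak, 2567 bp, reached into the window with 12 bp.

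Klf13, known as a regulator of the chemokine RANTES in T cells, lies at chr7:63886351-63938915 (minus strand) and had the most peaks, 29. Of these, 19 followed one another with gaps under 1 kb over 66.5 kb, from upstream of the 5′ end to past the end of the gene, and this region was at percentile 99.9 of coding genes. The widest peak, 13224 bp at chr7:63895908-63909131, was not at the promoter but 29.8 kb inside the gene. It overlapped the gene model Gm27252 and an annotated TSS that is not of Klf13. The body holds the nested coding gene E030018B13Rik, whose TSS lay in a peak of 8413 bp, and the peaks there cannot be assigned to either gene. The widest distal peak was 5182 bp, at the far end of the gene.

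Klf15, a glucocorticoid target that controls amino acid and lipid use in muscle, lies at chr6:90462576-90475238 (plus strand). Its promoter peak of 11632 bp, chr6:90461781-90473412, began upstream of the 5′ end and reached 10.8 kb into the gene. Of 15 distal peaks, 10 lay downstream, where the gene Aldh1l1 begins 23.9 kb from the Klf15 start. Of the 32.2 kb covered, 15.6 kb lay on other coding genes or their promoters, the largest such length in the 10 windows. The widest distal peak there was 3091 bp, 43.6 kb from the Klf15 start.

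**Figure D3:**
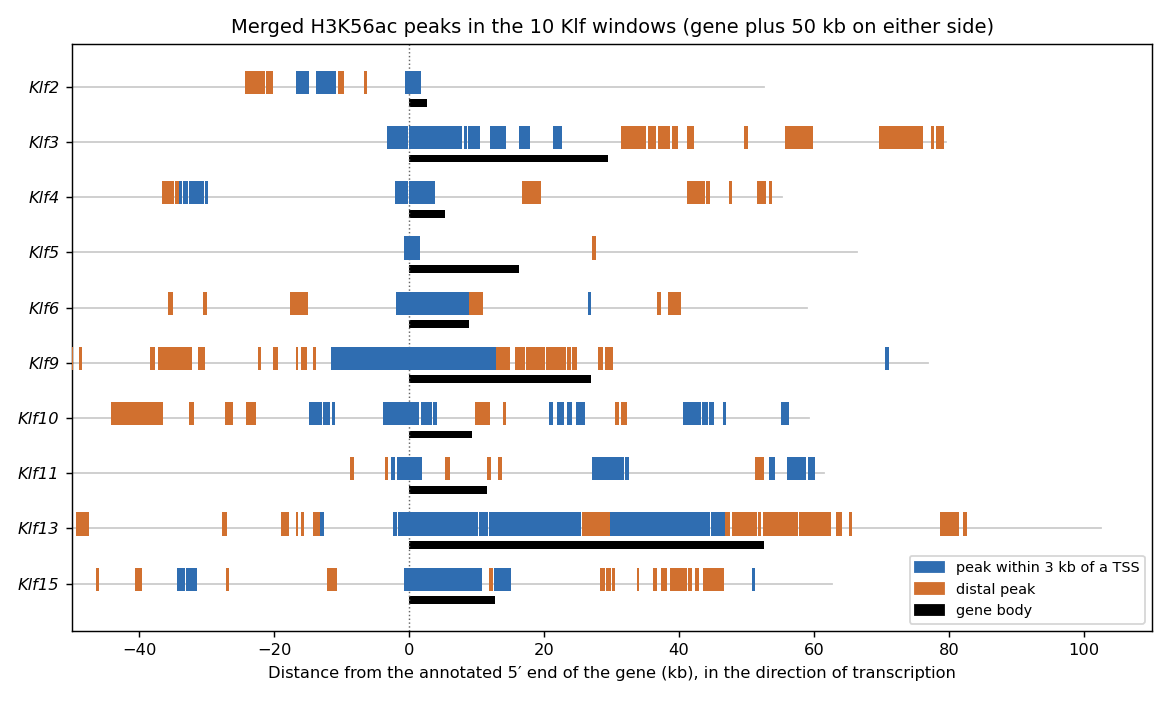
Peaks in each window by distance from the annotated 5′ end of the gene (x axis, kb, in the direction of transcription), 1 row per member; blue peaks lie within 3 kb of an annotated TSS of any gene, orange peaks are distal and black bars are gene bodies. The rows show the peaks of Klf3 on the downstream side, those of Klf2 upstream, the unbroken peak over Klf6 and the series of 19 peaks along Klf13.

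Averaged over the members, cover was highest just past the 5′ end. In the first 5 kb after the 5′ end it was 75.5%, against 32.3% for coding genes, and every member had some (lowest 32.1%). The ratio to coding genes was largest from 5 to 10 kb past the 5′ end, 51.1% against 12.8%, where 7 of 10 members had cover. The bins follow distance and not gene bodies, and at Klf2, which is 2.62 kb long, this bin is downstream flank. In the 5 kb before the 5′ end it was 46.8% against 24.4%. Farther upstream the members' mean was above that of coding genes in every bin from 5 to 25 kb, with 24.2% against 9.94% at 10 to 15 kb. It was also above at 30 to 35 kb (24.8% against 10.8%) and 35 to 40 kb (18.4% against 10.9%). The members lay below coding genes at 25 to 30 kb (5.19% against 10.8%), 40 to 45 kb (9.63% against 10.9%) and 45 to 50 kb (6.18% against 11.0%). In these upstream bins the median member passed the coding mean only at 10 to 15 kb. From 10 to 50 kb past the 5′ end the mean of every bin was above that of coding genes. It was 41.9% against 11.1% at 10 to 15 kb. At 40 to 45 kb it was 35.1% against 11.3%, and at 45 to 50 kb 15.4% against 11.3%. Of these bins, the median member passed the coding mean only at 10 to 15, 25 to 30 and 40 to 45 kb. At 20 to 25 kb and 35 to 40 kb the median was 0%, and 4 of 10 members had cover. Outside the 5 kb on either side of the 5′ end, at least 3 members had no cover in each bin.

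**Figure D4:**
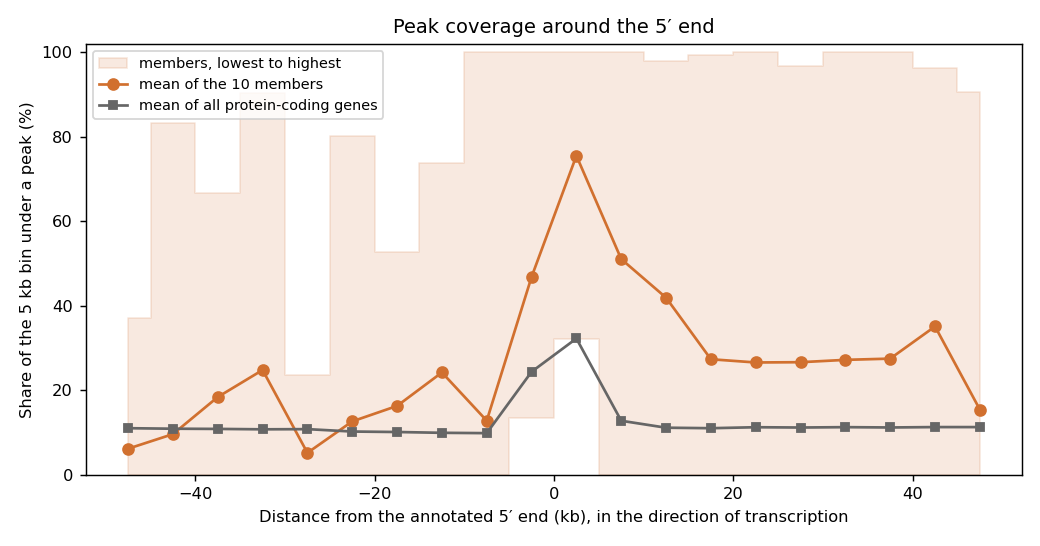
Share of each 5 kb bin under a peak (y axis, %) by distance from the 5′ end (x axis, kb), as the mean of the 10 members (circles) and of 21938 coding genes (squares); the shaded band runs from the lowest to the highest member. The members' mean is 75.5% in the first bin past the 5′ end against 32.3%, and 51.1% against 12.8% in the next.

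The windows held 101 distal peaks, of which 38 lay upstream, 16 in a member gene and 47 downstream. Of the peaks 63.1% were distal, and these held 43.8% of the bases covered. Both values were below those of the whole list, 65.7% and 53.1%. Windows built around genes take in their promoter peaks by design, so a lower distal share is partly set by the window rule. Per window the number of distal peaks had a median of 8.5, against 2 for all coding genes, which include those without a promoter peak. No such median was taken over only the coding genes with a promoter peak. By this definition, windows with few other TSSs leave more room for distal peaks, and no reference matched for this was taken. The distal peaks were short, with a median of 808 bp (862 bp for all 69374 distal peaks). The median of all 160 peaks was 950.5 bp against 974 bp for the list, and 13 peaks (8.13%, against 6.00% of the list) were at least 5 kb wide and held 40.3% of the covered length. Of 150 gaps between neighbouring peaks, 84 (56%) were under 1 kb.

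**Figure D5:**
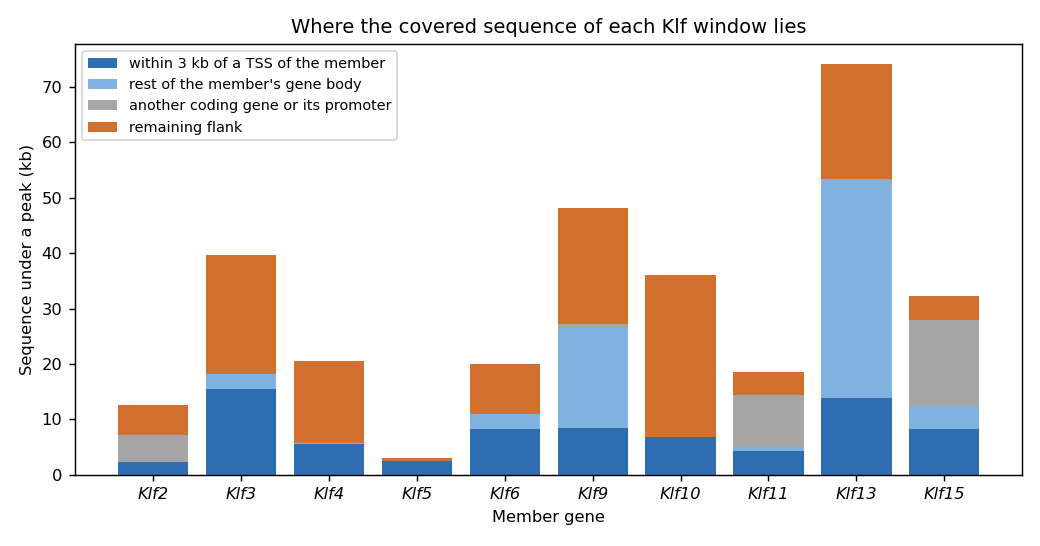
Covered sequence of each window (y axis, kb) split, from the bottom, into sequence within 3 kb of a TSS of the member, the rest of its gene body, other coding genes with their promoters, and remaining flank. Over the 10 windows these held 75.7, 67.9, 30.6 and 131 kb, and the gene body dominates at Klf13 while the flank dominates at Klf10.

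Part of the distal sequence is shown for the motifs of factors known to act in MuSCs, the E-box CAGCTG, which myogenic bHLH factors such as MYOD bind, and TGANTCA, bound by AP-1. Both were searched on both strands, and capitals mark the matches. The stretches are 120 bases on the plus strand of GRCm38, and none overlaps an annotated exon. That of Klf5, chr14:99326209-99326328, is from its only distal peak, that of Klf13, chr7:63910826-63910945, is from an intronic peak of 4131 bp, and that of Klf15, chr6:90502440-90502559, is from a peak of 2621 bp in an Aldh1l1 intron. The narrowest peak, in the Klf9 intron at chr19:23161521-23161733, is given whole and held neither motif.

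Klf5 distal peak: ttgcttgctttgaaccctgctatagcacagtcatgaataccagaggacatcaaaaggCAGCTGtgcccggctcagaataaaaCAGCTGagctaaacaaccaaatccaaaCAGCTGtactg
Klf13 intronic peak: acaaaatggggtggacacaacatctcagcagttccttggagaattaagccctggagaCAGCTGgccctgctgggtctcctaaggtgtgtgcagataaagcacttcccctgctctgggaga
Klf15 distal peak: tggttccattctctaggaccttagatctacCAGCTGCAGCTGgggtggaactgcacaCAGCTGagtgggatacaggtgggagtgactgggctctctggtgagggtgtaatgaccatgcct
Klf9 narrowest peak: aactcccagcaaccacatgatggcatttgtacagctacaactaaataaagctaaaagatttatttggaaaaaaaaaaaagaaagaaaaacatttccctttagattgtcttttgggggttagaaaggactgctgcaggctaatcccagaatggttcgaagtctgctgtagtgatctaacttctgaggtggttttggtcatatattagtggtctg

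The 650 bp peak of Klf5 held 3 matches of CAGCTG and all are in the stretch, while the Klf15 peak held 5. Over the 101 distal peaks CAGCTG occurred in 55 (54.5%, against 46.6% of all distal peaks) and TGANTCA in 33 (32.7%, against 32.2%). Per kb the values were close to those of all distal peaks, 0.644 against 0.628 for CAGCTG and 0.388 against 0.348 for TGANTCA, and in the uncovered sequence of the same windows they were 0.486 and 0.302. By member, the 5.46 kb of Klf2 distal peaks held 3 matches of TGANTCA and 0 of CAGCTG, the 15.02 kb of Klf15 held 1 and 16, and the 29.0 kb of Klf13 held 15 and 20. The counts per member are small. CACCC occurred at 2.64 per kb, against 2.25 in all distal peaks, and in 81.2% of the distal peaks, against 79.3%. Its highest density was 4.34 per kb at Klf13, and the 0.65 kb of Klf5 held none. GC content was 47.0% in the distal peaks of the windows, 45.1% in all distal peaks and 44.9% in the uncovered sequence, and the repeat-masked share was 20.7%, 19.98% and 31.4%.

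The other 16 Klf and Sp genes gave a comparison within the family, and 12 (75%) had a promoter peak. Klf14, Klf17, Sp7 and Sp8 had none, and the windows of Klf17 and Sp8 held 0 peaks. The widest promoter peak among them was 13275 bp at Sp2, and the median of the 12 was 3942.5 bp, against 6675.5 bp for the members. The median window of the 16 was covered to 13.7%, but the 7 other Klf genes had a median of 2.92% and the 9 Sp genes 23.4%, next to 24.0% for the members. Sp7, without a promoter peak, had a window covered to 32.5%, which overlaps that of Sp1. The windows of Sp2 and Sp6 overlap as well, so the Sp windows share some peaks.

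The labelled cell type was checked against marker genes. All 8 MuSC markers (Pax7, Myf5, Calcr, Itga7, Cd34, Vcam1, Cdh15 and Sdc4) had a promoter peak, with a median widest peak of 12834.5 bp. Of the markers of other cells, 3 of 5 endothelial genes (not Cdh5 or Tie1), 1 of 5 leukocyte genes, 3 of 4 fibro-adipogenic genes (not Ly6a) and 4 of 4 myofibre genes had one, with medians of 3440, 2636, 4396 and 1188 bp. Of all coding genes 67.8% had one. Single markers of other cells had peaks as wide as MuSC markers, 12975 bp at the endothelial gene Tek and 9775 bp at the fibroblast gene Dpt, against 7972 bp at Cdh15, the narrowest of the MuSC markers. Per the study's methods, cells positive for Sca1, CD45 or CD31, which mark fibro-adipogenic, leukocyte and endothelial cells, were depleted with magnetic beads before the sort for Integrin-a7 and CD34 or for a reporter. The part of such cells in the peaks of the members, several of which are widely expressed, was not tested.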

How the data were processed

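H3K56ac ChIP-seq and input libraries of MuSCs (8 libraries, 4 groups of 2) were labelled in GEO. Per the study's methods, the authors trimmed reads with Trim Galore, mapped them uniquely to mm10 with Bowtie, removed duplicates with Picard, called peaks with MACS2, removed blacklisted regions and reduced overlapping peaks to 1 reference list. The submitters' processing notes also name FastQC, SAMtools and deepTools. The deposited list gives chromosome, start and end, and its score column is 0 throughout. Which libraries entered the merge is not given in the sources used here. Merging can widen and fuse peaks, and unique mapping lowers coverage of repeats.

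Intervals were overlapped (at least 1 bp) with GENCODE vM21 genes on GRCm38, the same assembly as mm10, with Python 3.11.15, numpy 2.4.6, pandas 2.3.3 and matplotlib 3.10.9. Windows were each gene plus 50 kb on either side, promoters 3 kb around any TSS, and peaks were clipped to windows for covered shares. Coordinates count from 1. Percentiles are among 21938 protein-coding genes, or the 14872 with a promoter peak for promoter widths and joined regions. Functions were tested on simulated intervals. Sequences came from RefSeq, and the distal stretches from the peak with the most motif matches. All members are named, with the nearest coding gene, any other coding gene at the widest peak and the widest distal peak. Of the other family genes, those without a promoter peak and the one with the widest are named, and Sp1 and Sp6 were named after their values were seen. The members, lists and motifs were chosen with earlier results of these data known. Comparison of genotypes was not possible from the list.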

Additional observations from a re-analysis of the deposited data

How the results depend on the processing

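A count was taken as moved when it changed by more than 1.5 times, and any other value when it changed at 3 significant digits. By this, 26 of 44 recomputed values moved and 18 did not. With 10 kb on either side the covered share was 48.1%, with 65 peaks, a median percentile of 91.7 (82.5 in the report's windows), and 35 distal peaks holding 26.2% of the covered length. With 100 kb on either side these were 21.0%, 249, 77.6, 162 and 46.5%. With intervals of at least 500 bp the covered share was 25.1%, the percentile 81.2 and the distal share 43.0%. With intervals less than 1 kb apart joined, 76 peaks covered 27.9%, the median widest promoter peak was 10513 bp, the percentile 83.0, the distal peaks 47 with 32.4% of the length and the median body cover 67.6%. With TSSs of protein-coding transcripts only there were 128 distal peaks (101 in the report) and the distal share was 57.6%, and with distal set at over 10 kb there were 52 distal peaks with 24.4%. Outside other coding genes and their promoters the covered share was 26.5%. Ranked among coding genes within 50% of the length the percentile was 80.0, and among those with a promoter peak 75.4. The number of members with a promoter peak was 10 under each of the 3 alternatives run on it.

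No paired analysis was possible because the list carries no values per sample, and no library was left out for the same reason. The planned description of the zinc finger proteins was not run, since no protein sequences were used here. Depth and peak height limit all values, since the list does not separate unmarked bases from bases below detection.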

Other observations

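The nearest annotated 5′ end of another coding gene was more than 80 kb away from Klf3, Klf4, Klf5, Klf6, Klf9 and Klf10. It was between 13.8 kb (Klf2) and 30.5 kb (Klf11) away from the other 4. Other annotated TSSs of those genes can lie nearer. Windows free of any other coding gene were those of Klf3, Klf4, Klf6 and Klf10, where the covered share was 30.7%, 19.4%, 18.4% and 33.0%. Annotated lincRNA genes lay in 6 windows, with 3 each at Klf6 and Klf15.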
